A study of Mus musculus with 12 samples.

Results

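The genes examined here encode 9 enzymes that break down amino acids, a process known to be promoted in the liver by glucocorticoids such as corticosterone (CORT), the main glucocorticoid of rodents: Tat, Tdo2, Hpd, Sds, Agxt, Got1, Gpt, Gpt2 and Prodh. They were chosen by gene name, with earlier results of these data known. Each name matched 1 row among the 55416 genes of the liver table and 1 row of the intestine table. The samples were livers and duodenums (intestine) of male C57BL6/J mice, 8 weeks old at the start, that received CORT at 40 mg/kg or the vehicle alone (Veh) by a daily subcutaneous injection for 8 weeks. The vehicle, given to both groups, was water with DMSO and Tween-80. Each tissue had 3 CORT and 3 Veh libraries, 12 libraries in all, made from pieces of whole tissue. The replicates were named as biological, but not by animal, so p-values measure the spread between these samples.

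Amino acid catabolism begins with the removal or transfer of the amino group and continues with the cutting of the carbon skeleton, which can then be used to make glucose or be oxidised. Hepatocytes carry most of these pathways, and glucocorticoids are long known to raise hepatic Tat (tyrosine aminotransferase, the first step of tyrosine breakdown) and Tdo2 (tryptophan dioxygenase, the first step of tryptophan breakdown along the kynurenine route). The transaminases Gpt, Gpt2 and Got1 move amino groups between alanine or aspartate and glutamate, and are shared by many tissues.

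Values are TPM, a relative transcript level scaled within each library and corrected for transcript length, so levels of different genes can be set side by side. How many reads lie behind a value is not known. Log2 fold changes were computed on log2(TPM + 1) with limma for every gene whose mean reached 1 TPM in the CORT or the Veh group of that tissue, and a gene was called when its adjusted p was 0.05 or less and its fold change over 1.5. In the liver all 9 genes were tested among 11699, and in the intestine 5 of the 9 were tested among 13607. The treatment was visible in both tissues in Fkbp5, a gene induced by glucocorticoids, which was at 7.14 to 19.5 TPM in Veh livers and 221 to 273 TPM in CORT livers. The liver libraries held the hepatocyte markers (summed TPM of 6 genes between 71730 and 104151), and the intestine libraries the enterocyte markers (8778 to 12954). Of the hepatocyte markers, Alb was at 0.39 TPM or less and Fgb was listed at 0 in every intestine library. The 6 markers still summed to 1179 to 2872 TPM there, most of it Apoc3, at 1169 to 2854 TPM. Ttr was at 3.75 to 6.50 TPM, Apoa2 at 3.71 to 11.5 TPM and Ahsg at 0.27 TPM or less. In intestine Veh2 and Veh3, 12 pancreatic acinar genes summed to 29145 and 25410 TPM, against 141 to 315 TPM in Veh1 and the CORT libraries.

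In the liver of CORT-treated mice, Tdo2 and Hpd (a dioxygenase, the second step of tyrosine breakdown) rose and Agxt (alanine-glyoxylate aminotransferase, which removes glyoxylate) fell. Tdo2 was 3.03 times as high in CORT livers as in Veh livers on the fitted scale, Hpd was 1.80 times as high, and Agxt was at 0.41 of its Veh level. Thus 3 of the 9 genes were called, 2 higher and 1 lower. Across all tested liver genes 6.92% were called, 4.91% higher and 2.01% lower. That split depended on the scaling: 575 genes were higher and 235 lower, against 543 and 467 under median-ratio scaling, where the median log2 fold change of all genes was -0.0011 in place of 0.08 and the same 3 of the 9 were called. In 5 of the 9 genes (Tdo2, Hpd, Agxt, Sds and Gpt2) all CORT values lay on the same side of all Veh values, which held for 32.2% of all tested genes. The remaining 6 genes had log2 fold changes between 0.03 (Gpt) and 1.23 (Sds), with adjusted p-values from 0.0613 (Gpt2) to 0.916 (Gpt, both limma). By an unadjusted p under 0.05 alone there were 7 of the 9, 6 higher and 1 lower, against 25.9% of all tested genes, 16.9% higher and 9.06% lower. The median log2 fold change of the 9 genes was 0.85, against 0.08 over all tested liver genes. The 9 genes and the wider list described below were chosen with earlier results of these data known. Comparisons of them with all genes, in either tissue, therefore only describe these genes. Livers and duodenums are mixtures of cells, so a change in the number of cells of a type and a change in RNA per cell cannot be told apart.

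**Figure D1:**
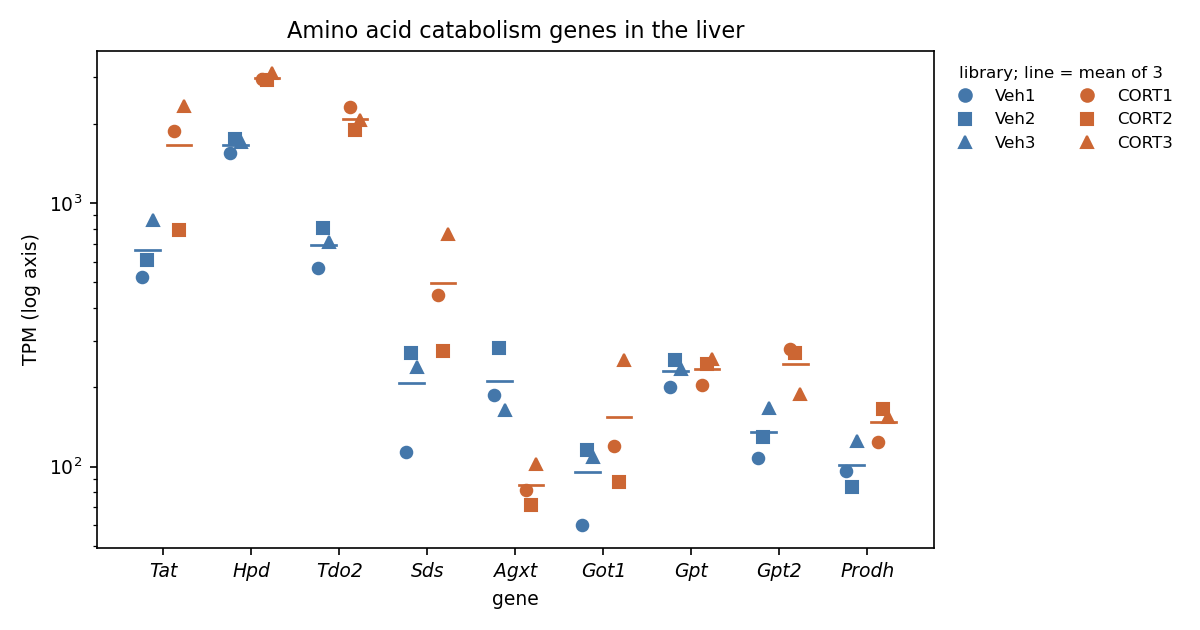
Level of each of the 9 genes in the 6 liver libraries, in TPM on a log axis (blue, Veh; orange, CORT; the marker shape gives the library number; the line is the mean of 3 libraries). Tdo2, Hpd, Agxt, Gpt2 and, narrowly, Sds do not overlap between treatments, as was so for 32.2% of all tested liver genes. The CORT libraries of Tat, Sds and Got1 are spread widely, with CORT2 lowest.

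The stretch before the start of transcription is shown for the 3 called genes and for Tat, since the glucocorticoid receptor acts by binding DNA near the genes it controls. The sequences are RefSeq windows of the 250 bases before the annotated start, from GRCm38.p6 and read on the strand of the gene, and 7 of the 9 genes had one (Gpt and Sds did not). They were searched on both strands for ACANNNTGT, the spaced core of the receptor's palindromic motif, and for one arm of it, TGTTCT, with matches in capitals. The windows lie at chr3:81975729-81975978 on the minus strand for Tdo2, chr5:123182724-123182973 on the minus strand for Hpd, chr1:93134990-93135239 on the plus strand for Agxt and chr8:109990186-109990435 on the plus strand for Tat.
Tdo2: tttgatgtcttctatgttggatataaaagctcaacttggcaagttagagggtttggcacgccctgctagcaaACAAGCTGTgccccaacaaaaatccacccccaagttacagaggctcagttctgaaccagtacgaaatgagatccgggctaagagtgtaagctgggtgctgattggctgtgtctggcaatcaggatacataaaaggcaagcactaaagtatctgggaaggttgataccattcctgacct
Hpd: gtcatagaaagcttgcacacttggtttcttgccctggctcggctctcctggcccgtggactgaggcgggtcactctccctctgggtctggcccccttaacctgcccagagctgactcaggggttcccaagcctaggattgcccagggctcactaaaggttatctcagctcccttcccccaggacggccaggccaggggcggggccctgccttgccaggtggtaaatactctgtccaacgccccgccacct
Agxt: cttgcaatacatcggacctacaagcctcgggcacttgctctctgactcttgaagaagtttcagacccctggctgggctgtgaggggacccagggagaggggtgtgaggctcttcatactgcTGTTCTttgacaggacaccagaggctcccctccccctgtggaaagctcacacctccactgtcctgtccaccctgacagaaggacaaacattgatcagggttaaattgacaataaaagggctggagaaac
Tat: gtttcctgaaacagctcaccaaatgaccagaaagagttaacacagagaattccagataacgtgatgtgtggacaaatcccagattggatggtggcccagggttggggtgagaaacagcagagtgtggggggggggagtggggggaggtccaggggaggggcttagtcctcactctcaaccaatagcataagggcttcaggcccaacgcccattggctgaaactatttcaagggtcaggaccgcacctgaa
The Tdo2 window held 1 match to the spaced core, ACAAGCTGT, at positions -178 to -170 from the start, and 5.84% of 32851 windows of this length held such a match. The Agxt window held 1 such arm, at positions -129 to -124, as did 16.1% of the windows at 1 or more positions. These letters were in neither the Hpd nor the Tat window, nor in those of Got1, Gpt2 and Prodh. A match of letters does not show that the receptor binds there, and these windows do not reach more distant sites.

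Tdo2 catalyses the step that commits tryptophan to the kynurenine route. It was at 567, 804 and 713 TPM in Veh1, Veh2 and Veh3 and at 2312, 1899 and 2071 TPM in CORT1, CORT2 and CORT3. The lowest CORT library was thus above the highest Veh library, with means of 2094 ± 207 TPM against 694 ± 120 TPM (SD, n = 3). The log2 fold change was 1.60 (SE 0.17, 95% interval 1.20 to 2.00, limma adjusted p = 0.00528). Tdo2 was called whichever of the 6 liver libraries was left out. The log2 fold changes of later steps of the route lay closer to 0 than that of Tdo2. Among 11 tested genes of tryptophan breakdown Tdo2 was the 1 called. By an unadjusted p under 0.05 (limma) there were 2 (18.2%, against 25.9% of all tested liver genes), Tdo2 higher and Kyat3 lower (log2 fold change -0.38). Kyat1 had a log2 fold change of 0.62 (limma adjusted p = 0.269). Kmo (kynurenine monooxygenase) had one of 0.29, Afmid of -0.11, Kynu of -0.14 and Ido2, an alternative first enzyme, of -0.13, with limma adjusted p-values from 0.306 to 0.825.

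Tyrosine breakdown runs through Tat and Hpd to Hgd, Gstz1 and Fah. Tat, the first step, was at 524, 608 and 862 TPM in the Veh livers and at 1872, 788 and 2333 TPM in CORT1, CORT2 and CORT3. CORT1 and CORT3 were above every Veh library, while CORT2 lay below Veh3, so the groups overlapped. The means were 1664 ± 793 TPM and 665 ± 176 TPM (SD, n = 3), a log2 fold change of 1.21 (SE 0.41, 95% interval 0.25 to 2.18) that was not called (limma adjusted p = 0.121). The Tat result depended on CORT2: without that library the log2 fold change was 1.68 and the limma adjusted p 0.0258, while leaving out each of the 6 libraries in turn gave values from 0.90 to 1.68.

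Hpd, the next step, was the highest of the 9 genes in every liver library. It was at 1546, 1751 and 1707 TPM in the Veh livers and at 2955, 2931 and 3109.8 TPM in the CORT livers. The CORT libraries differed among themselves by a factor of 1.06 from lowest to highest, against 2.96 for Tat, and the groups were far apart. The means were 2999 ± 97.0 TPM and 1668 ± 108 TPM (SD, n = 3), with a log2 fold change of 0.85 (SE 0.12, 95% interval 0.56 to 1.14, limma adjusted p = 0.0126). Hpd was not called without Veh3 or without CORT1 (limma adjusted p = 0.0610 and 0.0587), where its log2 fold change stayed at 0.86, nor with no filter on low values (limma adjusted p = 0.0798). The later steps lay close to 0: Hgd had a log2 fold change of 0.08, Gstz1 of 0.25 and Fah of 0.13 (limma adjusted p from 0.255 to 0.719). Of 8 tested genes of phenylalanine and tyrosine breakdown, 1 (Hpd) was called.

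Agxt, a peroxisomal and mitochondrial transaminase, also takes part in the use of serine and alanine. It was at 186, 282 and 165 TPM in the Veh livers and at 81.2, 71.3 and 102 TPM in the CORT livers. Every CORT library was below every Veh library, and Veh2 was the highest of all. The means were 85.0 ± 15.9 TPM and 211 ± 62.4 TPM (SD, n = 3), a log2 fold change of -1.28 (SE 0.23, 95% interval -1.83 to -0.73, limma adjusted p = 0.0259). The call of Agxt was lost without Veh1, CORT1 or CORT2 (limma adjusted p = 0.0656, 0.0898 and 0.0720), and with no filter on low values (limma adjusted p = 0.0735). The other glyoxylate enzymes were not called: Agxt2 had a log2 fold change of -0.01, Grhpr of 0.28 and Hao1 of -0.15 (limma adjusted p from 0.350 to 0.982).

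Sds (serine dehydratase, which turns serine into pyruvate and ammonia) was at 113, 269 and 239 TPM in the Veh livers and at 449, 275 and 764 TPM in the CORT livers. The groups did not overlap, but CORT2 was only just above Veh2. Its log2 fold change was 1.23 (SE 0.45, 95% interval 0.17 to 2.28) and was not called (limma adjusted p = 0.143). Its relative Sdsl had a log2 fold change of 0.88 and a limma adjusted p of 0.232.

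Among the transaminases, Gpt2, the mitochondrial alanine transaminase, was at 108, 129.6 and 167 TPM in the Veh livers and at 279, 269 and 189 TPM in CORT1, CORT2 and CORT3. All CORT libraries were above all Veh libraries, with CORT3 nearest to them. Gpt2 had a log2 fold change of 0.86 (SE 0.22, 95% interval 0.35 to 1.38), just short of the threshold (limma adjusted p = 0.0613). Without CORT3 it was 1.04 and was called (limma adjusted p = 0.0451). Gpt, the cytosolic form, was at 200.5, 254 and 235 TPM in the Veh livers and at 204, 245 and 257 TPM in the CORT livers. The ranges lay on top of each other, and the log2 fold change of 0.03 (SE 0.15) had a 95% interval of -0.32 to 0.39. Its sign turned under median-ratio scaling and when single libraries were left out.

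Got1, the cytosolic aspartate transaminase, was at 59.9, 116 and 109 TPM in the Veh livers and at 119.85, 87.55 and 254 TPM in the CORT livers. CORT2 was within the Veh range and CORT3 far above it. Got1 had a log2 fold change of 0.60 (SE 0.42, 95% interval -0.40 to 1.60, limma adjusted p = 0.417), which was 0.17 without CORT3. Prodh (proline dehydrogenase, the first step of proline breakdown) was at 95.9, 84.0 and 125.4 TPM in the Veh livers and at 124.4, 165 and 155 TPM in the CORT livers. The groups met at a single pair of libraries, CORT1 and Veh3. Prodh had a log2 fold change of 0.55 (SE 0.19, 95% interval 0.10 to 0.99, limma adjusted p = 0.127).

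Tat, Sds, Got1, Hpd and Agxt had CORT3 highest and CORT2 lowest among the CORT livers. The ratio of CORT3 to CORT2 was 2.96 for Tat, 2.78 for Sds and 2.90 for Got1, but only 1.44 for Agxt and 1.06 for Hpd. In Tdo2, where CORT1 was highest and CORT2 again lowest, the ratio of these was 1.22. Of the genes known to be induced by glucocorticoids, Tsc22d3 was at 161, 82.0 and 174 TPM and Per1 at 11.5, 7.57 and 13.4 TPM in CORT1, CORT2 and CORT3, with CORT2 again lowest. Zbtb16 was at 26.75, 20.38 and 23.45 TPM, also lowest in CORT2, and Fkbp5 had another order, at 273, 249 and 221 TPM. Against Veh livers, Fkbp5 and Zbtb16 were called (limma adjusted p = 0.00178 and 0.00597). Tsc22d3 and Per1 were not called (limma adjusted p = 0.0623 and 0.131). The part of any difference between these livers in the spread of Tat was not tested.

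**Figure D2:**
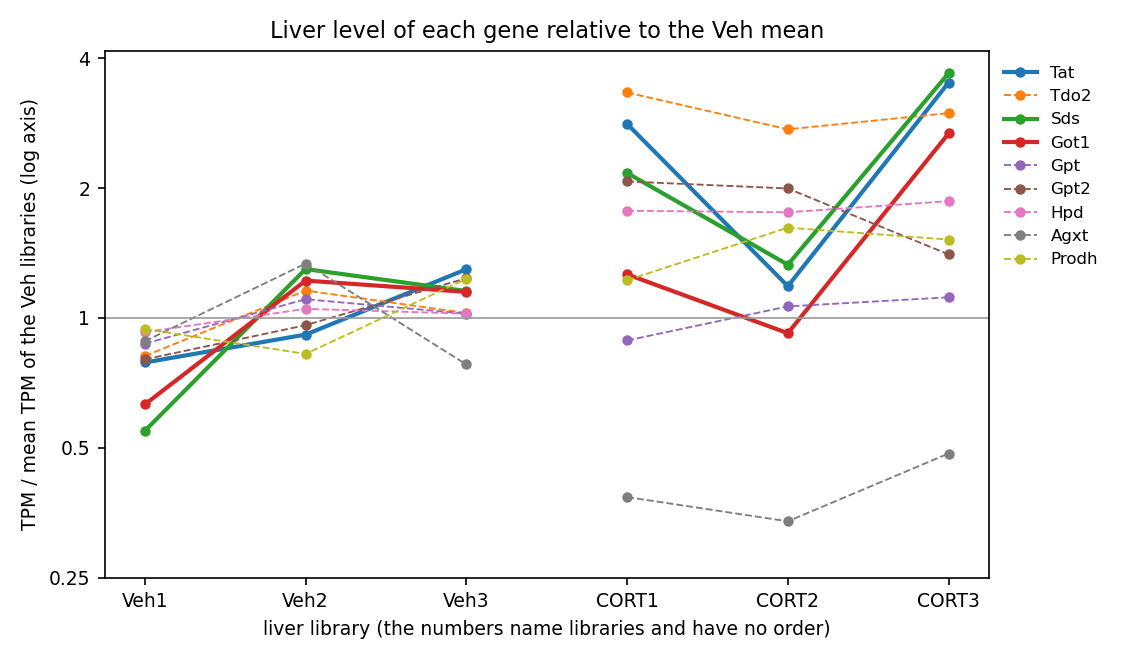
Level of each of the 9 genes in each liver library divided by the mean of the Veh libraries, on a log axis; lines join the points of 1 gene within a treatment and imply no order of libraries. Tat, Sds and Got1 (solid lines) dip in CORT2 to between 0.922 and 1.33 of the Veh mean and reach 2.68 to 3.69 in CORT3, while Tdo2 stays between 2.74 and 3.33.

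Summed over the 9 genes, liver transcripts made up 0.341% to 0.434% of TPM in Veh libraries and 0.681% to 0.939% in CORT libraries. Hpd, Tdo2 and Tat supplied 73.6% to 77.5% of that sum in Veh livers and 81.4% to 85.0% in CORT livers. A higher share in CORT was not particular to the 9. The other genes of the amino acid breakdown list described below held 1.53% to 1.75% of TPM in Veh and 1.97% to 2.16% in CORT livers. By mean level over the 6 libraries, Hpd ranked 64th among the genes of the liver table, Tdo2 94th and Tat 114th. These 3 had the same order in the means of both groups, and the order of the other 6 differed between them. Within Veh livers, Tat (665 ± 176 TPM) and Tdo2 (694 ± 120 TPM) were within 1 SD of each other, as were Sds (207 ± 82.5), Agxt (211 ± 62.4) and Gpt (230 ± 27.2), and also Got1 (94.97 ± 30.6) and Prodh (102 ± 21.3). Gpt2 (135 ± 29.6) lay between the latter groups. In CORT livers Tat was at 1664 ± 793 TPM and Tdo2 at 2094 ± 207 TPM, again within 1 SD of Tat. Sds (496 ± 248) came next, followed by Gpt2 (246 ± 49.2) and Gpt (235 ± 27.7), then Got1 (154 ± 88.3) and Prodh (148 ± 21.0), with each of these pairs within 1 SD, and Agxt (85.0 ± 15.9) was the lowest of the 9.

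Hepatocytes near the portal vein and near the central vein differ in amino acid use. The summed TPM of 6 pericentral markers was 3007 to 4925 in Veh livers and 5360 to 8292 in CORT livers, without overlap. Most of that sum was Cyp2e1, at 2363 to 3662 and 4175 to 6988 TPM. Limma called 0 of the 6. Cyp2e1, Glul and Slc1a2 had an unadjusted p under 0.05, with log2 fold changes of 0.85, 1.02 and 1.18, while those of Cyp1a2, Oat and Rhbg were -0.51, -0.11 and 0.21. For 6 periportal markers, Sds and Hal among them, the sums overlapped, at 2172 to 3112 and 2003 to 2991, with 0 of 6 called and 3 at an unadjusted p under 0.05 (Sds at a log2 fold change of 1.23, Cyp2f2 at -0.48 and Hal at -0.63). Of all tested liver genes, taken singly, 25.9% had an unadjusted p under 0.05 (limma) and 32.2% did not overlap between CORT and Veh. Lymphocyte markers summed to 2.20 to 7.39 TPM in Veh livers and 0.06 to 0.60 TPM in CORT livers. Their part in the results above was not tested.

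The liver genes whose values across the 6 libraries were most like those of Tat, by Pearson's r of log2(TPM + 1) over 11698 other genes, were Yod1 (0.998), Jaml (0.991) and Enpp2 (0.991). Those most like Tdo2 were Pole4 (0.999), Marchf6 (0.998) and Kbtbd7 (0.997). An r above 0.9 was reached by 182 genes with Tat and by 1033 genes with Tdo2, and all points share the same 6 libraries and 2 treatments, so these values only describe the libraries. Jaml followed Tat closely, at 0.80, 0.65 and 1.87 TPM in the Veh livers and 8.05, 2.02 and 12.8 TPM in the CORT livers.

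The wider pathway was described with a list of 92 genes of amino acid breakdown that includes the 9, of which 91 matched a single row (Gcat matched 2 and was left out). In the liver 88 were tested, and 6 were called higher and 2 lower, which is 9.09% of them against 6.92% of all genes. Under median-ratio scaling 10 were called, 6 higher and 4 lower, the 2 added being Amt and Hal. Their median log2 fold change was 0.02, against 0.08 over all genes. Apart from the 9, 4 of 79 were called higher and 1 lower (6.33%), so the rest of the list was called about as often as liver genes in general. The branched-chain amino acid group had 20 tested genes and none called by limma (1 at an unadjusted p under 0.05), and the group of alanine, aspartate, glutamate and glutamine, which holds Gpt, Gpt2 and Got1, had none of 9 called (1 at an unadjusted p under 0.05, Gpt2). Also there, Got2 had a log2 fold change of 0.23, Glud1 of 0.23 and Gls2 of -0.42. Of 4 tested genes of proline and hydroxyproline breakdown none was called (1, Prodh, at an unadjusted p under 0.05), and Prodh2 had a log2 fold change of -0.11 and Aldh4a1 of 0.02.

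The 5 called liver genes outside the 9 act on lysine, glycine, histidine, methionine and cysteine. Aass, the bifunctional enzyme that starts lysine breakdown, was at 66.1, 84.1 and 68.9 TPM in the Veh livers and 229, 228 and 221 TPM in the CORT livers. Its CORT values were nearly the same, and its log2 fold change of 1.62 (SE 0.13, limma adjusted p = 0.00202) was close in size to that of Tdo2. Aass was called whichever of the 6 libraries was left out. Gldc, the glycine decarboxylase of the glycine cleavage system, was at 32.9 to 37.8 TPM in Veh and 60.8 to 79.2 TPM in CORT livers, with a log2 fold change of 1.01 (limma adjusted p = 0.0113). Amdhd1, an enzyme of histidine breakdown, was at 80.9 to 122 TPM in Veh and 41.6 to 46.7 TPM in CORT livers, with a log2 fold change of -1.16 (limma adjusted p = 0.0129). Gldc and Amdhd1 both lost their call without Veh3 or CORT1. Hal, which starts histidine breakdown, had a log2 fold change of -0.63 and was not called (limma adjusted p = 0.122). It was called under median-ratio scaling, as was Amt of the glycine cleavage system (log2 fold changes of -0.72 and -0.63, limma adjusted p = 0.0306 and 0.0260).

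Cdo1, which oxidises cysteine, was at 627 to 949 TPM in Veh and 1408 to 1715 TPM in CORT livers (log2 fold change 1.08, limma adjusted p = 0.0220). Mat1a, which makes S-adenosylmethionine from methionine, was at 766 to 1074 TPM in Veh and 1349 to 1953 TPM in CORT livers (log2 fold change 0.83, limma adjusted p = 0.0495). Both groups of values were without overlap, but with 1 of the 6 libraries left out Cdo1 was called only without Veh3, and Mat1a in 0 of 6 fits. With no filter on low values neither was called (limma adjusted p = 0.0735 and 0.135).

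**Figure D3:**
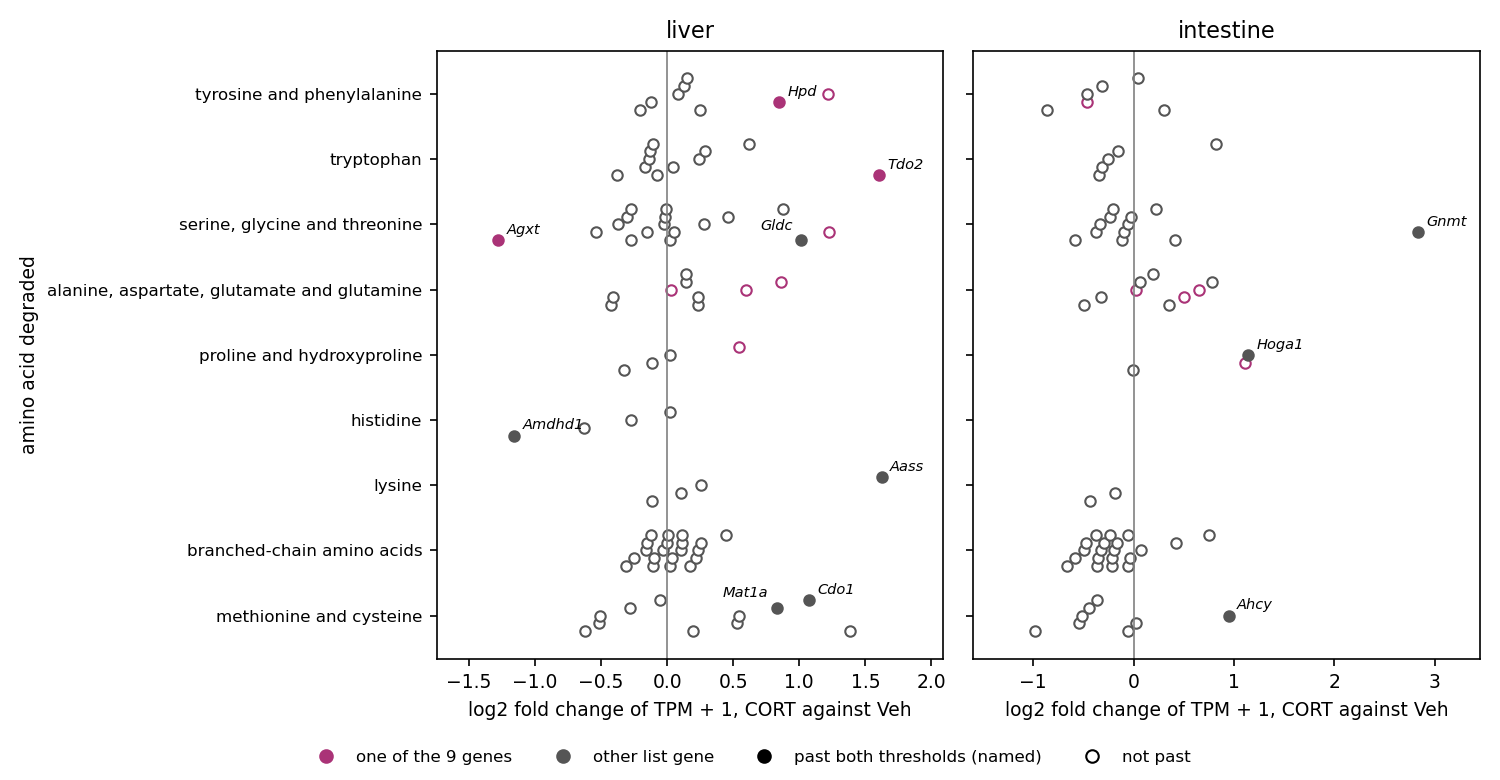
Log2 fold change (CORT against Veh, of TPM + 1) of every tested gene of the list, by the amino acid degraded, in the liver (left, 88 genes) and the intestine (right, 65 genes); purple, the 9 genes; grey, the others; filled and named, called. Filled points are 8 in the liver and 3 in the intestine, and within the liver groups most genes lie near 0 beside the called ones.

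In the intestine none of the 5 tested genes was called, and the values of 3 of them (Prodh, Gpt and Gpt2) did not overlap between CORT and Veh. Across all tested intestine genes 2.15% were called, 1.23% higher and 0.919% lower, and the values of 26.4% did not overlap. With limma, 3 of the 5 had an unadjusted p under 0.05 (Prodh, Gpt and Gpt2), against 19.2% of all tested genes, and 2 of these (Prodh and Gpt) also had a fold change over 1.5. The median log2 fold change of the 5 was 0.51, against -0.01 over all genes. Beside the acinar RNA of Veh2 and Veh3, the libraries differed in 6 visceral smooth muscle markers, which summed to 265 to 584.5 TPM in Veh and 175 to 269 TPM in CORT intestines. Limma called 0 of the 6, 4 had an unadjusted p under 0.05, and their median log2 fold change was -0.63. The part of these markers in the results was not tested.

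The other 4 genes were near or at 0 in the intestine. Tat was listed at 0 in the 3 Veh intestines, and its level in the CORT intestines was 0.18, 0.05 and 0.09 TPM. Tdo2 was at 0.02 to 0.35 TPM in Veh and 0.05 to 0.15 TPM in CORT libraries, Agxt at 0.11 to 0.61 and 0.13 to 0.51 TPM, and Sds was listed at 0 in all 6. Fkbp5 was higher in CORT in these same intestines, at 8.68 to 23.3 TPM in Veh and 252 to 379 TPM in CORT libraries, and the glucocorticoid receptor gene Nr3c1 was at 9.20 to 21.0 TPM over the 6 libraries, against 7.63 to 11.4 TPM in the liver.

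Prodh had the largest fold change of the 5. It was at 26.6, 14.6 and 25.6 TPM in Veh1, Veh2 and Veh3 and reached 52.35, 37.0 and 56.2 TPM in CORT1, CORT2 and CORT3. All CORT libraries were above all Veh libraries, with means of 48.5 ± 10.2 TPM against 22.3 ± 6.65 TPM (SD, n = 3). The log2 fold change was 1.11 (SE 0.26, 95% interval 0.49 to 1.74, limma adjusted p = 0.0878), and with each library left out in turn it stayed between 0.85 and 1.29. Against Veh1 alone, the Veh library without acinar RNA at the level of Veh2 and Veh3, it was 0.82.

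Gpt was the highest of the 9 genes in the intestine. Veh intestines had 309, 209 and 259 TPM of it, and CORT intestines 489, 316 and 419 TPM. CORT2, the lowest CORT library, was just above Veh1, the highest Veh library. The log2 fold change was 0.65 (SE 0.21, 95% interval 0.14 to 1.16, limma adjusted p = 0.174), and against Veh1 alone it was 0.38. Gpt2 was much lower, at 1.65, 2.36 and 2.13 TPM in Veh and 3.52, 2.96 and 3.45 TPM in CORT libraries. Its groups did not overlap either, with a log2 fold change of 0.51 (SE 0.16, 95% interval 0.12 to 0.89, limma adjusted p = 0.167), a scale that understates changes at such levels.

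Got1 was at 145, 153 and 145 TPM in Veh and 171, 121 and 161 TPM in CORT libraries. The CORT values lay on both sides of the Veh values, and the log2 fold change of 0.02 (SE 0.16) had a 95% interval of -0.35 to 0.39. Hpd was at 6.15, 14.3 and 7.45 TPM in Veh and 5.06, 5.10 and 8.46 TPM in CORT libraries. The groups overlapped and Veh2, the library with the most acinar RNA, was highest. The log2 fold change was -0.47 (SE 0.32, 95% interval -1.22 to 0.28, limma adjusted p = 0.463), and against Veh1 alone it was -0.02.

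**Figure D4:**
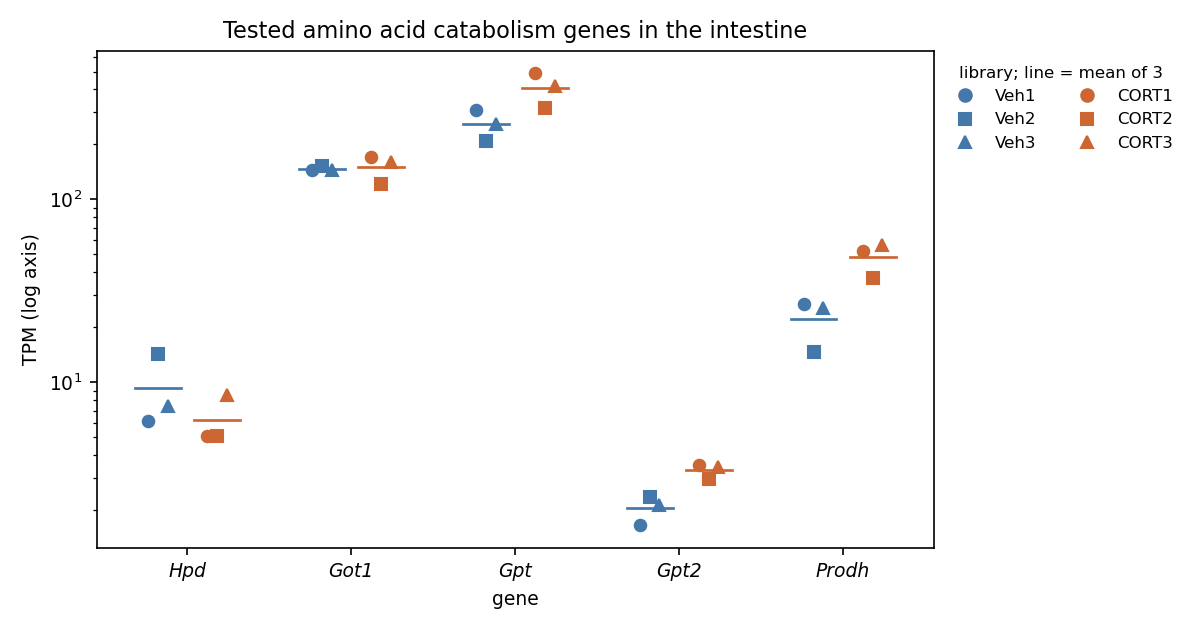
Level of the 5 tested genes in the 6 intestine libraries, in TPM on a log axis (blue, Veh; orange, CORT; the marker shape gives the library number; the line is the mean of 3 libraries). The CORT points of Gpt, Gpt2 and Prodh all lie above the Veh points, and those of Got1 and Hpd do not part.

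The make-up of the summed level differed between the tissues. In the intestine the 9 genes held 0.0394% to 0.0490% of TPM in Veh and 0.0485% to 0.0727% in CORT libraries, and Gpt alone supplied 53.1% to 67.7% of it. The tables of the tissues were normalized separately, so levels are given side by side without a test. In Veh mice Gpt was at 259 ± 50.0 TPM in the intestine and 230 ± 27.2 TPM in the liver, and Got1 at 147 ± 4.75 and 94.97 ± 30.6 TPM (SD, n = 3). The other 7 genes were lower in every intestine library than in any liver library.

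Of the 91 list genes, 65 were tested in the intestine, with 3 called higher and 0 lower (4.62% against 2.15% of all genes). By an unadjusted p under 0.05 alone there were 24 (36.9% against 19.2% of all genes). Of these 9 were higher and 15 lower, where 8.72% of all genes were higher and 10.5% lower, so more list genes were lower than higher by that measure. The list's median log2 fold change was -0.19, against -0.01 over all genes. Ahcy, which breaks down S-adenosylhomocysteine, was at 104 to 134 TPM in Veh and 214 to 244 TPM in CORT libraries (log2 fold change 0.95, limma adjusted p = 0.0272). Gnmt, which uses S-adenosylmethionine to methylate glycine, was listed at 0 in Veh1, reached 3.46 and 2.27 TPM in Veh2 and Veh3, and 14.5 to 18.6 TPM in CORT intestines (log2 fold change 2.84, limma adjusted p = 0.0462). Hoga1, of hydroxyproline breakdown, was at 0.74 to 0.75 TPM in Veh and 2.67 to 3.17 TPM in CORT libraries (log2 fold change 1.14, limma adjusted p = 0.0267). These 3 calls were fragile: when libraries were left out one at a time, Ahcy and Gnmt were called only without Veh1, and Hoga1 in 0 of 6 fits. With a pseudocount of 0.1 Gnmt was not called, while Ahcy and Hoga1 were. None of the 3 was called with no filter on low values (limma adjusted p from 0.0629 to 0.117), and Gnmt alone was called against Veh1 as the only Veh library.

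Whether CORT acted differently in the 2 tissues was tested in a fit of all 12 libraries with a term for the difference, over the 10500 genes tested in both, of which 3.00% were called at an adjusted p of 0.05 or less. None of the 5 genes was called, and 2 (Hpd and Gpt) had an unadjusted p under 0.05, as did 17.4% of all genes (limma). Liver and intestine libraries share replicate numbers, but whether the same number means the same mouse is not given, and the fit took them as independent. For Hpd the effect in liver minus that in intestine was 1.31 on the log2 scale (SE 0.35, 95% interval 0.55 to 2.08, limma adjusted p = 0.0684). It passed without intestine Veh1 (1.54, limma adjusted p = 0.0384) or without intestine CORT3 (1.53, limma adjusted p = 0.0455). Over the 12 fits with a library left out it lay between 0.99 and 1.54. Without Veh1, the intestine Veh libraries left were Veh2 and Veh3, those with the acinar RNA. Intestinal Hpd was at 14.3 TPM in Veh2, against 6.15 in Veh1 and 7.45 in Veh3. The part of the acinar RNA in this difference was not tested. With the replicate number as a block shared by the tissues, 245 genes were called in place of 315, none of the 5 among them, and the limma adjusted p of Hpd was 0.0950. For Gpt the difference was -0.62 (95% interval -1.19 to -0.04, limma adjusted p = 0.251), for Prodh -0.57 (-1.31 to 0.17), for Got1 0.58 (-0.46 to 1.62) and for Gpt2 0.36 (-0.22 to 0.93). Of the 64 list genes in this fit 3 were called, none of them among the 9: Cdo1 with a difference of 1.59, Hoga1 of -1.47 and Gnmt of -2.85 (limma adjusted p = 0.00321, 0.00812 and 0.0229). In Veh intestines Hoga1 was at 0.75 TPM or less and Gnmt at 3.46 TPM or less, with Gnmt listed at 0 in Veh1.

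**Figure D5:**
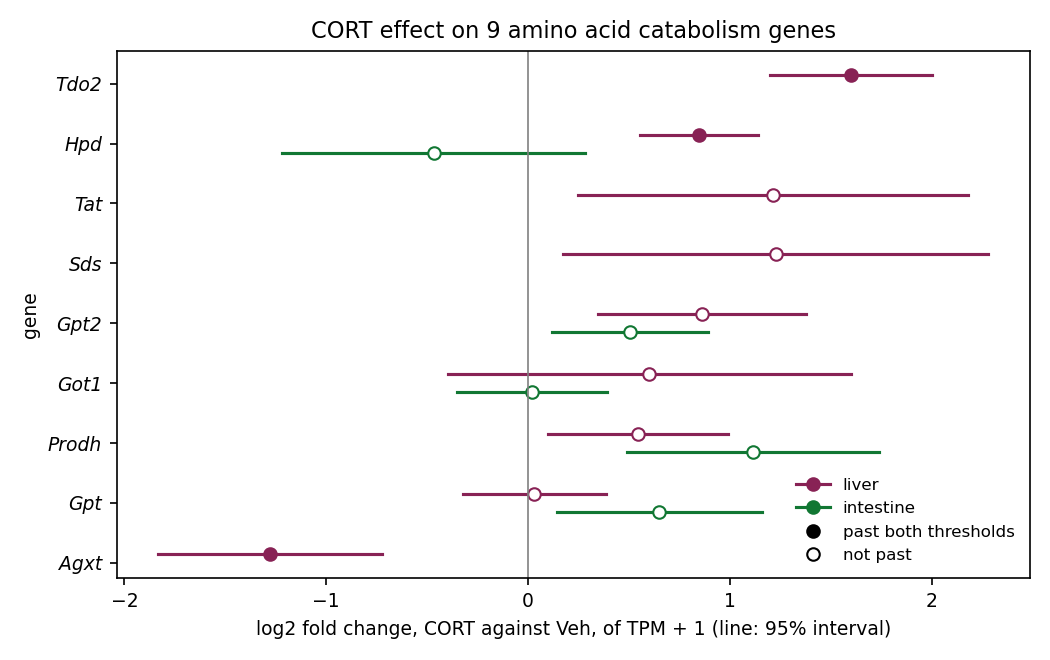
Log2 fold change of the 9 genes (CORT against Veh, of TPM + 1) with its 95% interval in the liver (purple) and, for the 5 genes tested there, in the intestine (green); filled points are called. Tdo2, Hpd and Agxt in the liver are filled. The liver and intestine intervals of Hpd do not overlap, but the test of the difference between tissues did not call Hpd (limma adjusted p = 0.0684).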

How the data were processed

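RNA-seq of liver and duodenum was analysed in 12 libraries, 3 CORT and 3 Veh per tissue, grouped by the sample labels. The authors used SeqPrep and Sickle for trimming, HISAT2 for alignment, StringTie for assembly and RSEM for quantification, on GRCm39 per the labels. They deposited 1 TPM value for each gene in each library. TPM keeps no depth, so errors from counting reads are not given. Versions of these tools are not given in the sources used here.

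For each tissue separately, limma 3.58.1 (R 4.3.3, lmFit and eBayes with trend) was fitted to log2(TPM + 1) with a treatment term, over genes whose mean reached 1 TPM in the CORT or the Veh group. Benjamini-Hochberg adjustment ran over all tested genes. The study called DEGs with a model of read counts, and limma was used here because the deposited values are TPM. The difference between tissues was fitted over all 12 libraries.

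The 9 genes, the list of 92 genes and the cell type markers were chosen with earlier results of these data known. Named are the 9 genes, the called list genes, fixed neighbours of the 9 in their pathways, the 3 genes most like Tat and Tdo2, and glucocorticoid-induced controls. One neighbour is not reported here. Alternatives were median-ratio scaling, no filter on low values, a pseudocount of 0.1, each library left out, the replicate number as a block, unadjusted p-values, no limit on fold change, and removal of 12 acinar genes. Veh1 as the only intestine Veh library was added after seeing the data. Promoter windows are RefSeq's for GRCm38.p6, another build than that of the tables, so no other coordinates are given.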

Additional observations from a re-analysis of the deposited data

How the results depend on the processing

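Tdo2 in the liver kept its direction and its call under every alternative run. Of 90 values of the 9 liver genes under the alternatives, 75 kept their direction and their side of the threshold, 9 were no longer called, 2 became called and 4 turned sign, all 4 of Gpt. Of 60 intestine values 57 kept both and 3 turned sign, all 3 of Got1, and of 80 differences between tissues 78 kept both. No filter on low values left 283 liver genes called (of the 9, 1, and of the list, 4), and 52 intestine genes (0 of the list), and called 346 genes as a difference between tissues, of the 9 only Tdo2 (1 gene). Intestinal Tdo2 was at 0.35 TPM or less, where log2(TPM + 1) can hardly change. That difference therefore mostly repeats the liver fold change and does not show how CORT acts on Tdo2 in the intestine. Unadjusted p-values with the fold change limit kept gave 1808 liver genes (6 of the 9, 13 of the list) and 1395 intestine genes (2 of the 9, 9 of the list). With Veh1 as the only intestine Veh library, assumed to vary like the CORT libraries, 10 genes were called, 1 of the list (Gnmt). Median-ratio scaling called 1010 liver genes, 543 higher and 467 lower, against 575 and 235 before, with the calls of the 9 as before and 10 of the list, 6 higher and 4 lower, and moved the log2 fold change of Gpt to -0.0637. Removal of the acinar genes moved that of Got1 in the intestine to -0.00494. Without the limit on fold change no call of the 9 genes changed. The causes were not tested.

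Leaving out single libraries gave 247 to 831 liver genes called, 1 to 4 of the 9 and 2 to 8 of the list. The lowest count was without CORT1, and other counts more than 1.5 times below that of all libraries were 315 without Veh1, 303 without Veh3, 435 without CORT2 and 522 without CORT3. In the intestine there were 66 to 237 genes and 0 to 2 of the list, with 66 without Veh3, 76 without Veh2, 99 without CORT3, 106 without CORT1 and 112 without CORT2. The liver log2 fold change of Gpt ranged from -0.0634 to 0.13 and the intestine one of Got1 from -0.0762 to 0.17. Between tissues 0 to 1 of the 5 genes was called.

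Same-numbered CORT and Veh samples deviated from their group means with correlations of -0.120 to 0.0378 in the liver and -0.0039 to 0.0734 in the intestine, and in neither tissue did every sample correlate best with its own number, so the numbers were not taken to pair the samples. With the replicate block 307 liver genes were called (1 of the 9, Tdo2, and 4 of the list) and 62 intestine genes (0 of the list). The number of libraries, 3 per group, limits the precision, and the depth behind a TPM value is unknown.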

Other observations

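In the intestine other genes of amino acid breakdown were at low levels. Kmo, of the kynurenine route, was at 1.23 to 2.10 TPM in Veh and 3.26 to 4.32 TPM in CORT intestines, without overlap. Its log2 fold change was 0.82, with a limma adjusted p of 0.0782. Tdo2, an enzyme that can start that route but not the only such enzyme, was at 0.35 TPM or less. Cdo1, called higher in CORT livers, was at 10.2 to 11.03 TPM in Veh and 6.58 to 7.99 TPM in CORT intestines (log2 fold change -0.51, limma adjusted p = 0.0900). Of the 20 tested genes of branched-chain amino acid breakdown in the intestine, 3 had a log2 fold change above 0, against 48.5% of all tested genes, and the median was -0.23, against -0.01. By an unadjusted p under 0.05 8 of the 20 passed, 1 higher and 7 lower, against 19.2% of all tested genes, and limma called 0.

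Hsd11b2, which inactivates corticosterone, was at 3.28 to 4.60 TPM in Veh and 14.8 to 21.4 TPM in CORT intestines, a log2 fold change of 1.93 (limma adjusted p = 0.00621). In the liver it was at 0.06 TPM or less in every library, and Hsd11b1, which regenerates corticosterone, was at 427 to 533 TPM in Veh and 350.2 to 527 TPM in CORT livers.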
